A study of Mus musculus with 21 samples.

Results

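LIF LP was compared with CH+LIF LP, using the 3 libraries labelled LIF LP and the 3 labelled CH+LIF LP, which were taken by their labels and make up 6 of the 21 libraries of the series. All libraries are mRNA sequencing of E14Tg2a, male mouse embryonic stem cells (129 background) with the green fluorescent protein GFPd2 knocked into Rex1 (Zfp42) on 1 allele. The series asked how pluripotency is kept under different media and held 7 groups of 3 libraries, each named by PO, LP or HP and by a medium, which was LIF, CH+LIF or 2i+LIF. Samples were taken at zero passage and after 1 and 2 months, but the labels do not say which of LP and HP is the longer culture, so both are used as names. Both groups were male cells of the same line and carried the same reporter, and both labels include LIF, the cytokine leukemia inhibitory factor. They differ by CH, the GSK3 inhibitor CHIR99021, which is in the label of CH+LIF LP only, and neither label names PD0325901, a MEK inhibitor. Per the protocol, which was one text for all libraries, cells were kept for 1 week in NDiff227 medium with 3 µM CHIR99021 and 1 µM PD0325901, after which CH, PD and LIF were given or withdrawn from passage to passage. The medium at harvest is therefore known from the group label alone. Nothing states that the replicates were separate cultures, so the p-values measure the spread between these libraries, which may be technical.

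GSK3 marks beta-catenin for destruction, and when it is inhibited beta-catenin enters the nucleus, where it relieves repression by Tcf7l1 and switches on Wnt target genes such as Axin2, Sp5 and Lef1. LIF acts through its receptor and gp130 (Il6st) on the kinase JAK1 and the transcription factor STAT3, whose targets Klf4, Tfcp2l1 and Socs3 belong to the circuit of naive pluripotency. MEK activates ERK, which induces immediate early genes and its own inhibitors of the Dusp and Spry families, and drives embryonic stem cells out of the naive state.

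The 6 libraries held 1298051 to 1916962 gene counts each, against 1132126 to 3783043 over the series, and 12106 to 13307 genes with at least 1 count. Where a library has 0 counts of a gene, up to 3 counts remain possible, and 3 counts were worth 1.44 to 2.28 CPM (counts divided by the scaled library size) in these libraries; such limits, like all intervals of counts, cover counting error only. Mitochondrial genes took 1.97 to 4.84% of gene counts in CH+LIF LP and 2.74 to 8.01% in LIF LP. Across tested genes, log2 CPM correlated at a median Pearson's r of 0.925 between libraries of the same group (6 pairs) and 0.915 between libraries of different groups (9 pairs), with ranges of 0.898 to 0.936 and 0.878 to 0.945 that overlapped. Every pair of replicates differed by more than sampling noise (chi-square per degree of freedom 5.39 to 20.1). Outside the comparison, 2i+LIF LP replicate 1 and 2i+LIF PO replicate 1 stood apart from their replicates, with 31.7% of gene counts from Gm42418, a locus overlapping ribosomal RNA, and 39.1% from mitochondrial genes. They are in neither group, but enter the fit through the estimate of the spread and the filter on low counts (10960 genes were tested without them). Levels of pathway targets went against the label in some libraries, CH+LIF LP among them: Sp5, a Wnt target, had 0.969, 0.605 and 1.52 CPM there, although the label names the GSK3 inhibitor, against 17.5 to 46.7 CPM in CH+LIF HP and, with no such inhibitor in the label, 19.6 to 30.2 CPM in LIF HP. Axin2, another target, had means of 5.16 CPM in CH+LIF LP and 5.53 CPM in CH+LIF HP. Dusp6, an ERK target, had 0, 1.23 and 0 CPM in LIF HP, although no MEK inhibitor is in that label.

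Few genes separated the groups. Of 10643 genes tested, edgeR's quasi-likelihood test with Benjamini-Hochberg adjustment called 5 at a threshold of 0.05, which is 0.047% of the genes (1 higher in LIF LP, 0.0094%, and 4 lower, 0.0376%). Ccnd2, which encodes the G1 cyclin D2, rose in LIF LP, and Nefm and Nefl, which encode neurofilament subunits, Trpm1, which encodes a cation channel of retina and melanocytes, and the long non-coding RNA gene 1700097N02Rik fell. The split of higher and lower calls varied with the method: it was 23 and 19 by limma-voom, 11 and 10 in a fit of the 6 libraries alone, 8 and 15 by DESeq2, 13 and 19 with no filter on low counts, 1 and 4 with DESeq2 size factors, and 1 and 6 with a replicate block. The fitted changes of the 5 lay between 5.28-fold and 14.4-fold. At an unadjusted p under 0.05 there were 501 genes (4.71%), and in 1514 genes (14.2%) the CPM of the groups did not overlap. The median log2 fold change of all tested genes was -0.03. Precision was limited: the median standard error (SE) of a log2 fold change was 0.49, and the 95% interval lay inside a 2-fold change in either direction for 2069 genes (19.4%) and inside 4-fold for 8308 genes (78.1%). A gene that did not pass is therefore not shown to be equal in the groups. Without the 2 libraries that stood apart, 23 genes passed (8 higher and 15 lower), the 5 among them. Without CH+LIF LP replicate 2, CH+LIF LP replicate 3 or LIF LP replicate 2, 1 gene passed, and 2 passed without LIF LP replicate 1; Nefm was the gene that passed in every one of these fits.

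**Figure D1:**
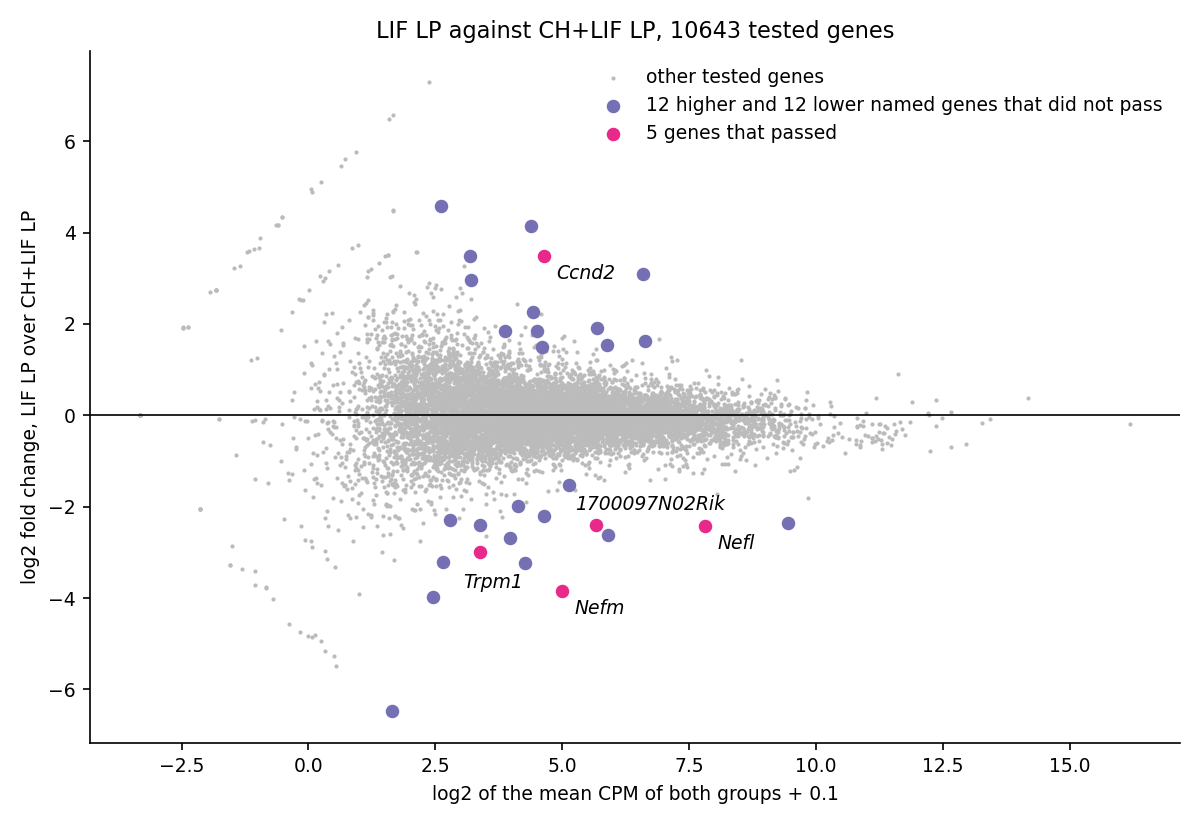
Log2 fold change of LIF LP over CH+LIF LP (vertical axis) against the log2 of the mean CPM of both groups plus 0.1 (horizontal axis) for 10643 tested genes. Pink points are the 5 genes that passed the test, purple points the 12 higher and 12 lower genes described as not passing, and the fitted value of -6.48 at the bottom belongs to Pglyrp1, which had 0 counts in LIF LP.

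Nefm encodes the medium and Nefl the light subunit of neurofilaments, the intermediate filaments of nerve axons. Nefm (ENSMUSG00000022054, chromosome 14, 68082590 to 68124846, minus strand, in GRCm38, the build of all positions here) had 50.9, 47.2 and 79.7 CPM in CH+LIF LP replicates 1, 2 and 3 and 1.65, 8.63 and 2.4 CPM in LIF LP. The lowest CH+LIF LP library thus lay above the highest LIF LP library, and the fall was the steepest of the 5 (log2 fold change -3.85, SE 0.53, 95% interval -4.93 to -2.77, edgeR adjusted p 0.000885). Nefl (ENSMUSG00000022055, chromosome 14, 68083863 to 68089095, plus strand) had 285.4, 363.8 and 496.6 CPM in CH+LIF LP and 84.3, 69.7 and 58.7 CPM in LIF LP, again with no overlap (log2 fold change -2.43, SE 0.44, 95% interval -3.33 to -1.52, edgeR adjusted p 0.022). Exons of Nefl lie inside the annotated span of Nefm on the opposite strand. The strand setting of the counting is not given in the sources used here, so reads of one may have been counted for the other or lost. Their results are therefore not independent. When 1 of the 6 libraries was left out, Nefm passed in all 6 fits and Nefl in 1.

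In the other groups Nefm was highest under the 2i+LIF labels and lowest under the LIF labels within both LP and HP. Its CPM were 188.6, 221.7 and 144.3 in 2i+LIF LP, 39.7, 35.7 and 38.1 in LIF HP, 155.7, 169.3 and 159.2 in CH+LIF HP, and 351.4, 194.6 and 354.6 in 2i+LIF HP. The ranges of the 3 media did not overlap within LP, nor within HP. The 2i+LIF PO libraries were low, with 23.2, 5.23 and 14.2 CPM. For Nefl the LIF HP libraries, at 312.8, 354.1 and 240.1 CPM, lay below those of CH+LIF HP, at 606.0, 597.7 and 617.7 CPM, while the range of 658.1, 504.8 and 852.0 CPM in 2i+LIF HP enclosed the latter.

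Nefm and Nefl were the 2 genes called among 10 tested genes of cytoplasmic intermediate filaments, both lower. Of all tested genes 0.0376% were called lower. Since Nefm and Nefl overlap and the list was chosen with earlier results known, the count is not read as a result of the family. The median log2 fold change of the list was -0.09 against -0.03 for all genes. Nefh, the heavy neurofilament subunit, had 7.75, 14.5 and 13.7 CPM in CH+LIF LP and 24.8, 9.96 and 20.7 CPM in LIF LP, which overlapped. Ina, which encodes internexin, a partner of the neurofilament subunits, had 19.9, 18.2 and 22 CPM against 29.7, 28.5 and 32.7 CPM in LIF LP. Prph, the peripherin gene, had 9.69, 12.7 and 3.04 CPM against 19.8, 32.5 and 14.4 CPM. These values lay above those of CH+LIF LP for both Ina and Prph, opposite to Nefm and Nefl, but neither gene passed the test (log2 fold changes 0.60 and 1.36, unadjusted p 0.315 and 0.11). Vim, encoding vimentin, had 716.5, 346.8 and 459.4 CPM against 316.2, 341.3 and 349.6 CPM. The epithelial keratins Krt8 and Krt18 were at 10.3 CPM or less in all 6 libraries. Markers of neural ectoderm and neurons gave no call in 8 tested genes, with a median log2 fold change of 0.53. Of the 8, 7 had positive values, against 5096 of all 10643 tested genes. In LIF LP 4 were higher without overlap, against 7.16% of all genes, and 1 had an unadjusted p under 0.05, against 4.71%. This was Sox1, an early neural transcription factor, with 33.4, 18.8 and 2.28 CPM against 53.4, 53.1 and 39.4 CPM (log2 fold change 1.39, unadjusted p 0.047). The other 6 genes of that list did not pass the filter on low counts; of these Pax3, Zic1, Dcx and Neurog2 had 0 counts in all 6 libraries.

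Ccnd2 encodes cyclin D2, which activates Cdk4 and Cdk6 to pass from G1 into S phase. It (ENSMUSG00000000184, chromosome 6, 127125162 to 127152193, minus strand) had 4.36, 7.26 and 0 CPM in CH+LIF LP and 51.2, 37.8 and 47.6 CPM in LIF LP. The LIF LP libraries were also above all 18 other libraries of the series, where the highest value was 17.5 CPM, in CH+LIF HP replicate 1. The rise had a log2 fold change of 3.48 (SE 0.66, 95% interval 2.13 to 4.83, edgeR adjusted p 0.0311). The annotated antisense genes 9330179D12Rik and Gm43126 overlap Ccnd2 and had 0 counts in all 6 libraries. When any 1 of the 6 libraries was left out, Ccnd2 no longer passed (edgeR adjusted p 0.0517 to 0.205), although its log2 fold change over all alternatives stayed between 2.99 and 4.40.

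No other cyclin, cyclin-dependent kinase or inhibitor was called among 17 tested genes, whose median log2 fold change was -0.24. Ccnd1, the D-type cyclin that is also a Wnt target, had 83.3, 66 and 94.2 CPM in CH+LIF LP and 116.8, 65.7 and 88 CPM in LIF LP. Ccnd3 had 367.7, 498.7 and 589.3 CPM against 291.9, 394.4 and 392.4 CPM. Cdk6 had 62, 26 and 38 CPM against 30.3, 21.2 and 8.66 CPM. The groups overlapped for all 3 of these genes. Rb1, whose product holds cells before S phase until it is phosphorylated by the cyclin D kinases, had 9.2, 8.47 and 12.2 CPM in CH+LIF LP and 28.6, 26.6 and 21.2 CPM in LIF LP, without overlap; it did not pass (log2 fold change 1.36, SE 0.50, unadjusted p 0.0113, edgeR adjusted p 0.791).

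Trpm1 encodes a channel of the melastatin TRP family, and in melanocytes it is a known target of the transcription factor MITF, which binds E-box motifs. Trpm1 has a pair of start sites in the RefSeq promoter table. Of the 5 genes that passed, Trpm1 and 1700097N02Rik have a window in that table; those of Trpm1 are shown because they hold matches; each is the 250 bases before the start in GRCm38.p6, written 5′ to 3′ on the plus strand. Capitals mark matches to CTTTGAA or CTTTGAT (the core motif of the TCF/LEF factors that carry beta-catenin) and to CATGTG or CACGTG (E-boxes), each searched on both strands.
Trpm1 first start, chr7:64153585-64153834: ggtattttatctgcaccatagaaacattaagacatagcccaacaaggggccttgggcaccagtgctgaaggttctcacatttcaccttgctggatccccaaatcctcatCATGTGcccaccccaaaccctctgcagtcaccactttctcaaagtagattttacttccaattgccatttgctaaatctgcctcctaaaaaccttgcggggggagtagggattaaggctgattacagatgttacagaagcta
Trpm1 second start, chr7:64185209-64185458: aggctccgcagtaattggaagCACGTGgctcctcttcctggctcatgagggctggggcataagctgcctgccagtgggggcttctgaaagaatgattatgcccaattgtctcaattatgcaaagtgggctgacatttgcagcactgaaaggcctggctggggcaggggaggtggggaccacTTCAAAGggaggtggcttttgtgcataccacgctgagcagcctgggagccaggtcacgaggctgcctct
The first window holds CATGTG, also before the start. The second holds CACGTG 229 bases before the start and CTTTGAA, on the minus strand, 69 bases before it. Of all 32851 windows of this length in the table, 12.3% hold CATGTG, 6.02% CACGTG, 4.46% CTTTGAA and 3.21% CTTTGAT. The window of 1700097N02Rik holds none of the 4 motifs. Of the 24 genes that came next in p, 9 higher and 9 lower ones have a window: CTTTGAA is in 2 and 0 of them, CTTTGAT in 0 and 0, CATGTG in 2 and 2, and CACGTG in 2 and 1. These are letter matches, and the libraries do not show which start was used.

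Trpm1 (ENSMUSG00000030523, chromosome 7, 64153835 to 64269775) had 11.1, 18.8 and 25.1 CPM in CH+LIF LP and 4.41, 0.664 and 1.44 CPM in LIF LP, from 87 and 12 counts. The groups did not overlap (log2 fold change -3.0, SE 0.51, 95% interval -4.05 to -1.95, edgeR adjusted p 0.012). Both were the lowest groups of the series, since the other 15 libraries held 26.7 to 133.6 CPM. Counts thinned to the size of the smallest library (edgeR adjusted p 0.0836) and a fit of the 6 libraries alone (0.0593) did not call it.

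Among 8 tested genes of the MITF family and of melanocytes, Trpm1 was the single call, against 0.047% of all tested genes. The list was chosen with earlier results known, so this count is a description. The median log2 fold change of this list was -1.21, against -0.03 for all genes. It moved to -0.46 when Slc24a5, with 0 counts in LIF LP, was set to its bound. Mitf itself had 63, 47.2 and 37.2 CPM in CH+LIF LP and 38, 43.2 and 45.2 CPM in LIF LP. Gpnmb, a melanosomal and lysosomal glycoprotein gene, had 11.6, 9.68 and 6.08 CPM against 3.3, 0.664 and 1.92 CPM, without overlap, and did not pass (log2 fold change -2.17, SE 0.69, unadjusted p 0.00401, edgeR adjusted p 0.679). Kit, the receptor of stem cell factor, was the member with a positive value: it had 12.6, 10.3 and 9.87 CPM against 37.5, 17.3 and 16.8 CPM, without overlap (log2 fold change 1.12, unadjusted p 0.0275, edgeR adjusted p 0.927). Pmel, which builds the fibrils of melanosomes, had 9.69, 5.45 and 9.87 CPM against 0, 4.65 and 1.92 CPM. The pigment enzyme genes Tyr, Tyrp1 and Dct and the neural crest factor Sox10 had 0 counts in all 6 libraries. Of the other TRPM channels, Trpm7 had 188.9, 168.3 and 110.1 CPM against 305.7, 160.0 and 161.1 CPM and Trpm4 had at most 13.3 CPM; the remaining 5 were not tested.

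The gene 1700097N02Rik (ENSMUSG00000099474, chromosome 17, 30622441 to 30626905, minus strand) had 49.4, 85.9 and 122.3 CPM in CH+LIF LP and 17.1, 9.3 and 21.6 CPM in LIF LP. The highest LIF LP library was below the lowest CH+LIF LP library, and below the lowest of the 15 other libraries, at 41.1 CPM (-2.40 on the log2 scale, SE 0.41, 95% interval -3.24 to -1.56, edgeR adjusted p 0.012). Its exons overlap those of Glo1, which encodes glyoxalase I, and of the dynein heavy chain gene Dnah8, so its counts may include or lack reads of those genes. Glo1 had 300.9, 329.3 and 376.7 CPM in CH+LIF LP and 224.2, 227.1 and 317.9 CPM in LIF LP. Dnah8 had 59.1, 53.3 and 57 CPM against 30.3, 38.5 and 14.4 CPM, which did not overlap. Neither passed (log2 fold changes -0.39 and -1.03, edgeR adjusted p 1 for both).

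**Figure D2:**
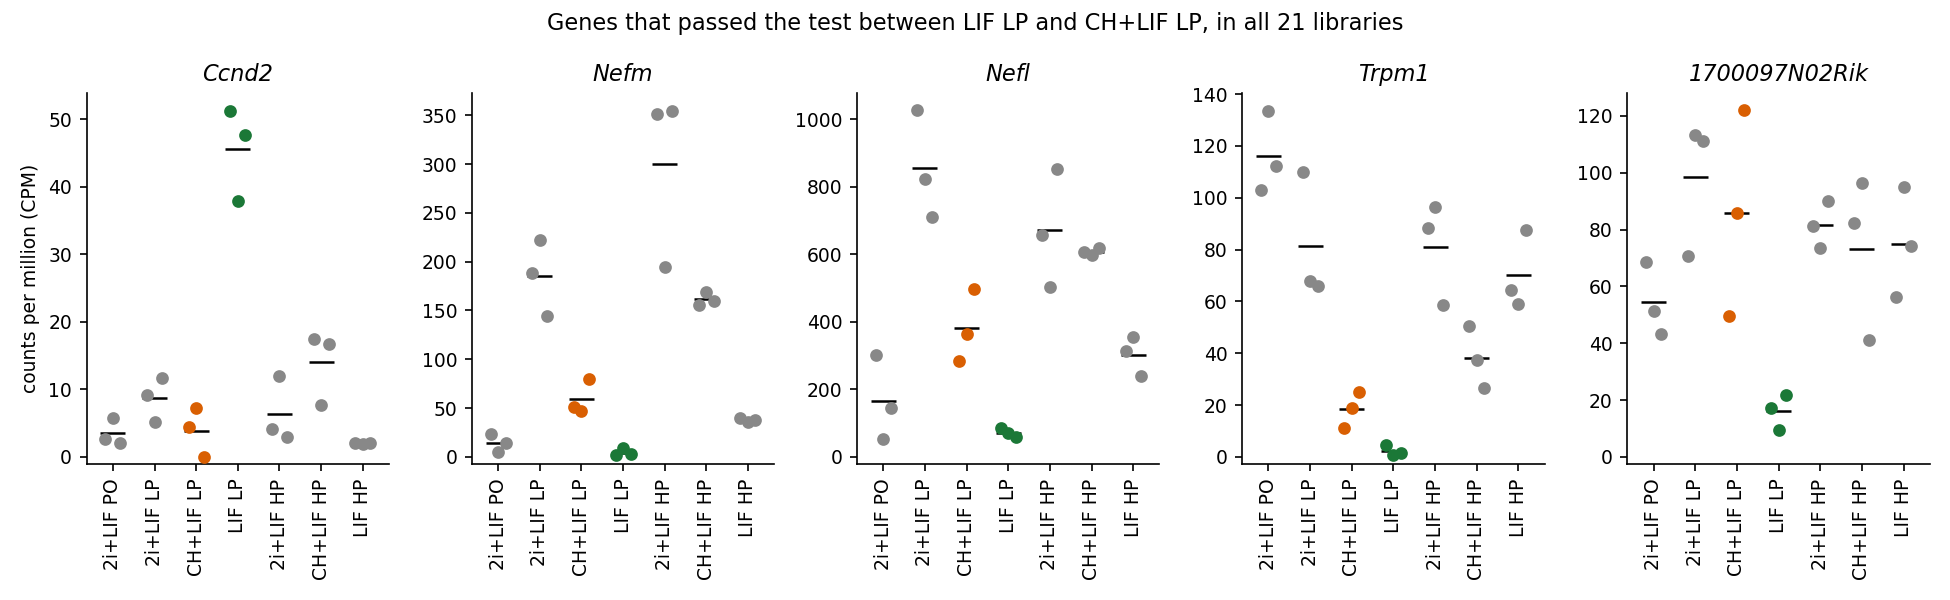
Level of the 5 genes that passed the test in all 21 libraries, as CPM (vertical axes, each from 0), by group (horizontal axes); points are libraries, bars are means of 3, CH+LIF LP is orange and LIF LP green. The LIF LP mean is the highest of the 7 groups for Ccnd2 and the lowest for the other 4 genes.

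LIF LP was the extreme of all 7 groups for many of the genes that best separated the media. Its mean was the highest or lowest of the 7 groups, on the side of the difference, for all 5 genes that passed and for 18 of the 24 described next. In 4 of those 24, Clgn, Efnb1 and Stra8 among them, CH+LIF LP was the extreme, and for Gpx2 and Liph it was neither. Since these genes were picked for a difference between LIF LP and CH+LIF LP, this is a description with no test.

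Below the threshold, 12 genes with higher and 12 with lower CPM in LIF LP were taken by smallest p among genes with a mean of at least 5 CPM in either group and no overlap of CPM. Without these limits on p and level, 762 of the tested genes (7.16%) were higher and 752 (7.07%) lower without overlap. None of the 24 passed, with edgeR adjusted p from 0.0939 to 0.388 for the higher and from 0.0746 to 0.283 for the lower ones. Other settings called many of them: 16 passed with DESeq2 (0.216% of all genes), 16 with no filter on low counts (0.169%), 13 in a fit of the 6 libraries alone (0.234%), 13 without the 2 libraries that stood apart (0.21%) and 18 with limma-voom (0.395%). The 24 were chosen by smallest p in the same libraries, so nothing is read from these shares.

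Of the higher genes, Foxp1, a forkhead transcription factor, had 24.7, 26 and 9.11 CPM in CH+LIF LP and 188.9, 167.3 and 160.6 CPM in LIF LP (log2 fold change 3.09, SE 0.66, edgeR adjusted p 0.0939). No other library of the series exceeded 36.4 CPM. Polr3gl, which encodes a subunit of RNA polymerase III, had 21.8, 17.6 and 25.1 CPM against 67.7, 107.6 and 68.3 CPM, and the coactivator gene Ncoa7 had 31, 33.3 and 25.8 CPM against 95.8, 79 and 89 CPM.

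Stra8, a retinoic acid induced gene of meiotic entry, had 2.91, 1.82 and 1.52 CPM in CH+LIF LP and 46.8, 41.2 and 30.3 CPM in LIF LP (log2 fold change 4.15, SE 1.11, edgeR adjusted p 0.312). Clgn, a chaperone gene of the testis, had 0.969, 1.21 and 2.28 CPM against 12.1, 16.6 and 20.7 CPM. Among the genes with lower CPM in LIF LP were Fkbp6 and Tdrd12, which take part in piRNA silencing of transposons. Fkbp6 had 124.0, 90.8 and 95.7 CPM against 24.8, 7.97 and 17.3 CPM, and Tdrd12 had 11.1, 15.7 and 25.8 CPM against 0.551, 1.99 and 6.73 CPM. The germline list, in which none of these genes is included, had no call among 9 tested genes and a median log2 fold change of 0.80. Its most separated member was Sycp2, of the synaptonemal complex, with 0 counts in CH+LIF LP and 12.1, 1.99 and 4.33 CPM in LIF LP, at least 11.4-fold higher there (edgeR adjusted p 0.448).

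Fgf1, a fibroblast growth factor, had 2 counts in CH+LIF LP and 63 in LIF LP, a ratio of 31.7 (95% interval of counting error 8.41 to 267). Efnb1, the ephrin-B1 ligand, had 4.84, 10.3 and 3.8 CPM against 20.9, 21.2 and 26.5 CPM. Ramp3, an accessory subunit of calcitonin family receptors, had 8.24, 12.1 and 1.52 CPM against 22, 51.1 and 34.1 CPM. Myo1f, an unconventional myosin, Ctsf, a lysosomal protease, and Btbd11 had log2 fold changes of 1.63, 1.84 and 1.5.

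Gpx2, a glutathione peroxidase, had 37.3, 26.6 and 40.2 CPM in CH+LIF LP and 1.65, 3.32 and 5.77 CPM in LIF LP (log2 fold change -3.23, SE 0.67, edgeR adjusted p 0.0746). Mt1, a metal-binding metallothionein, had 581.8, 1096 and 1849 CPM against 187.8, 212.5 and 283.8 CPM (log2 fold change -2.36, standard error 0.53, edgeR adjusted p 0.112). Ephx2, the soluble epoxide hydrolase, had 33.9, 36.3 and 53.9 CPM against 4.96, 4.65 and 16.4 CPM, and Aldh1l1, an enzyme of folate metabolism, had 12.1, 12.7 and 9.11 CPM against 2.2, 3.32 and 1.44 CPM. No library of one group reached the other in these 4 genes. Mt2, the neighbouring metallothionein, was outside the rule and was looked up after its values were seen; its mean was 1439 CPM in CH+LIF LP and 410.3 CPM in LIF LP (log2 fold change -1.81, edgeR adjusted p 0.448).

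Fetub, which encodes the protease inhibitor fetuin-B, had 26.6, 20 and 34.9 CPM against 7.71, 0.664 and 3.85 CPM (-2.68 on the log2 scale, SE 0.55, edgeR adjusted p 0.0746). Pglyrp1, a peptidoglycan recognition protein, had 27 counts in CH+LIF LP and 0 in LIF LP, at least 8.95-fold lower. Il34, a ligand of the CSF1 receptor, had 17, 39.3 and 27.3 CPM against 3.86, 10.6 and 6.73 CPM. Liph, a lipase, Gm31659 and Sh2d4b completed the list; Liph had 34.4, 44.2 and 78.2 CPM against 14.3, 23.2 and 16.8 CPM, and Sh2d4b had 48 and 3 counts, a ratio of 15.9 (95% interval of counting error 5.13 to 79.8).

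Within CH+LIF LP, replicate 3 had the highest CPM for 13 of the 16 genes that were lower in LIF LP, counting those that passed and those that did not. Over all tested genes it was the highest of its group for 33.8%, and for 47.1% of the genes that were lower in LIF LP without overlap. Replicate 3 also had the lowest CPM of its group for 9 of the 13 genes that were higher in LIF LP, Ccnd2 among them. It was the lowest for 35.3% of all tested genes, and for 44.9% of those higher in LIF LP without overlap. The same library had the fewest gene counts of its group (1328735), the lowest mitochondrial share (1.97%) and the lowest share of reads outside genes (12.2%). The part of these properties in the differences was not tested.

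**Figure D3:**
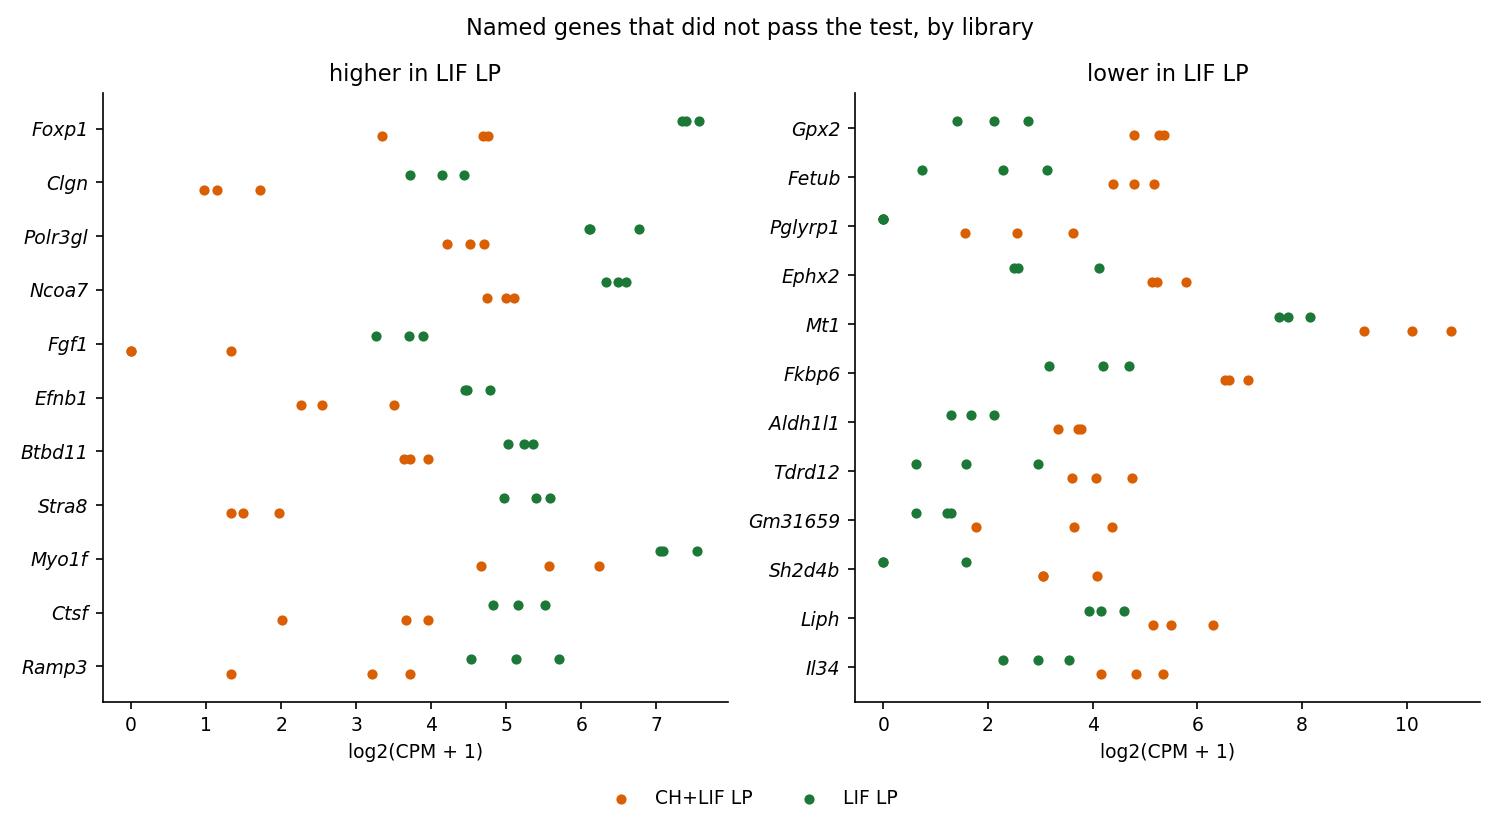
Level of 11 of the 12 genes higher (left) and the 12 genes lower (right) in LIF LP that did not pass the test, as log2(CPM + 1) (horizontal axes), with 1 row per gene ordered by p; each point is a library, CH+LIF LP orange and LIF LP green. The groups do not overlap in any row, because this was required of the genes shown.

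The same media were compared at HP with other libraries, LIF HP against CH+LIF HP, where 1.47% of the 10643 genes passed. The libraries labelled LIF HP are those in which Dusp6 was at or near 0, and its part in the values at HP was not tested. Of the 5 genes, Nefm also fell there (-2.09 on the log2 scale, SE 0.44, edgeR adjusted p 0.0148), and Nefl had a log2 fold change of -1.0 (SE 0.42, edgeR adjusted p 0.251). The others did not keep their direction. Ccnd2 had 2.06, 1.85 and 2.06 CPM in LIF HP and CH+LIF HP had 17.5, 7.63 and 16.8 CPM (-2.76 on the log2 scale, edgeR adjusted p 0.0552). Trpm1 had 64.4, 59.1 and 87.6 CPM in LIF HP and 50.6, 37.2 and 26.7 CPM in CH+LIF HP (0.87, edgeR adjusted p 0.287), and 1700097N02Rik had a log2 fold change of 0.03 (SE 0.38).

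Of the 24 genes below the threshold, 3 passed at HP in the same direction and 0 in the opposite one. Stra8 had 246.3, 357.2 and 160.7 CPM in LIF HP and CH+LIF HP had 11, 5.72 and 10.7 CPM (4.82 on the log2 scale, SE 0.99, edgeR adjusted p 0.0127). Myo1f had 118.5, 115.2 and 114.4 CPM in LIF HP and 38.9, 37.7 and 29.7 CPM in CH+LIF HP (1.71, SE 0.44, edgeR adjusted p 0.0487). Liph had 11.9, 18.5 and 15.5 CPM in LIF HP and 48.7, 46.8 and 34.3 CPM in CH+LIF HP (-1.51, SE 0.39, edgeR adjusted p 0.0485). In each of these genes the HP groups did not overlap. Altogether 14 of the 24 (58.3%) had the same sign at HP, as did 44.1% of all tested genes. All genes that passed at HP divided into 76 whose LP value had that sign and 80 whose LP value had the other or was 0.

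Whether the difference between media itself differed between LP and HP was tested by the interaction, which 45 of 10643 genes passed (0.423%). Leaving out CH+LIF LP replicate 3 reduced this count to 5, while it was 105 when 2i+LIF PO replicate 1 was left out and 914 with limma-voom. Ccnd2 (log2 interaction, HP minus LP, -6.24, SE 0.98, edgeR adjusted p 0.00337), Trpm1 (3.87, SE 0.64, edgeR adjusted p 0.00601) and 1700097N02Rik (2.43, SE 0.55, edgeR adjusted p 0.0459) were among them. For Nefm and Nefl the interaction was not called (1.76 and 1.42, edgeR adjusted p 0.303 and 0.352). Of the 24 genes 4 passed: Ramp3, Mt1, Gm31659 and Il34. These genes were chosen by the LP difference, which is part of the interaction, so their share cannot be read against the 0.423%.

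**Figure D4:**
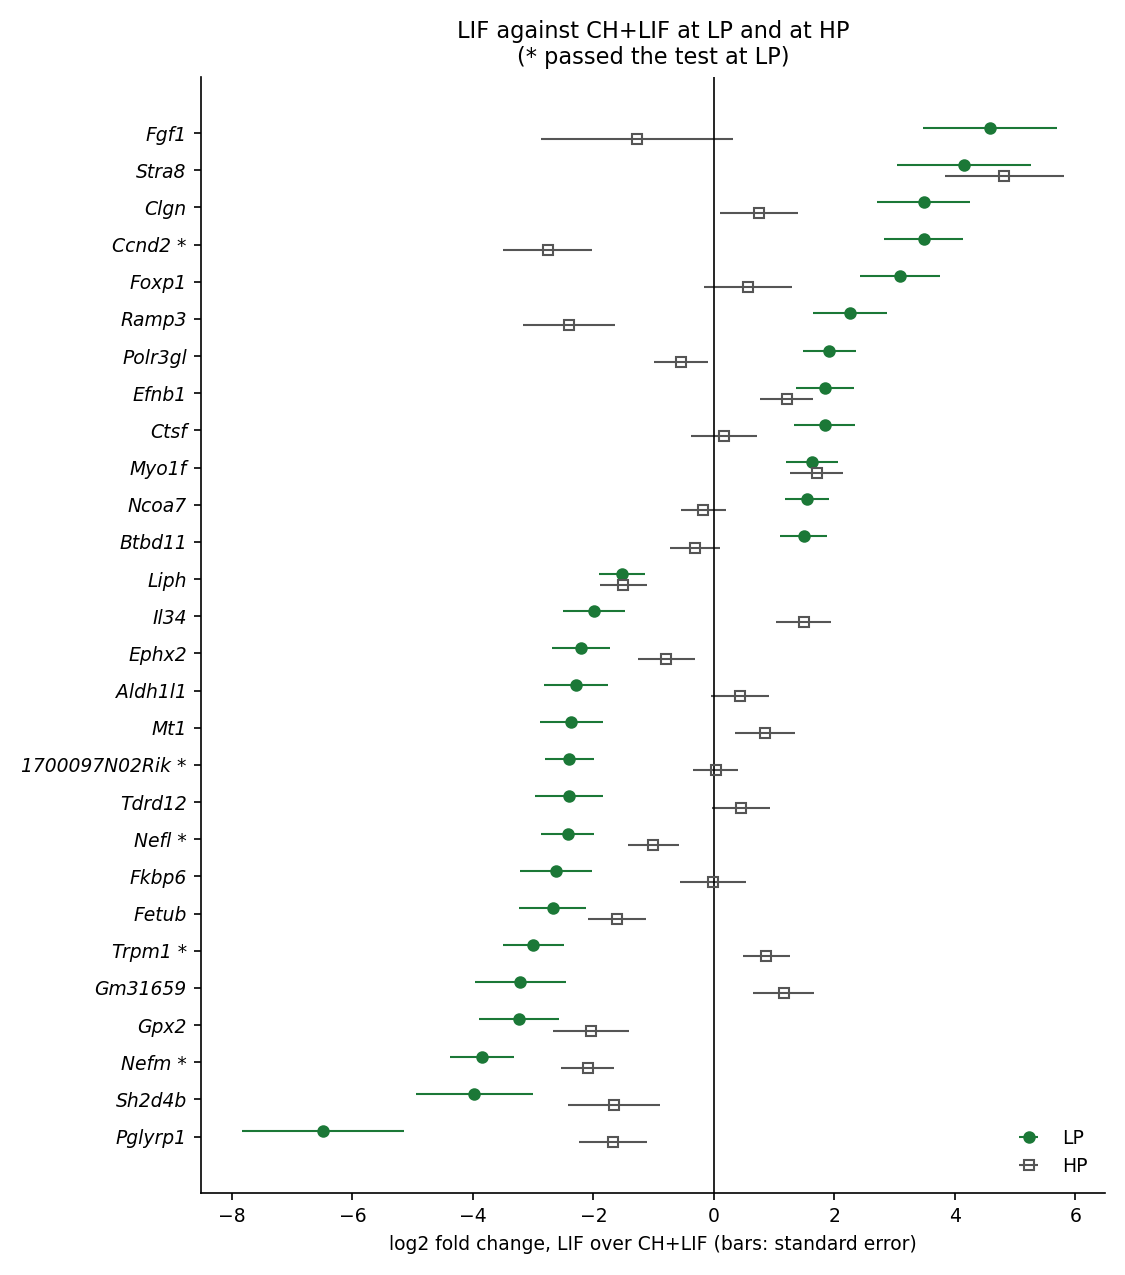
Log2 fold change of LIF over CH+LIF (horizontal axis; bars are the standard error) at LP (filled green circles) and at HP (open grey squares) for the 5 genes that passed at LP (starred) and 23 of the 24 that did not, ordered by the LP value. Stra8, Myo1f, Liph and Nefm passed at HP in the same direction, while Ccnd2, Ramp3, Il34 and Trpm1 lay on opposite sides of 0.

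Targets of the inhibitor named by the label were then examined. None of 13 tested Wnt target and feedback genes was called, and 1 had an unadjusted p under 0.05. T, Cdx2 and Dkk1 are among the 13 but had 0 counts in all 6 libraries, having passed the filter on low counts through other groups. The other 10 had a median log2 fold change of -0.17, against -0.03 for all genes. That gene was Axin2, the scaffold that is both part of the destruction complex and a direct target, with 0, 4.84 and 10.6 CPM in CH+LIF LP and 0, 1.33 and 0.962 CPM in LIF LP. The groups overlapped (log2 fold change -2.59, SE 1.08, unadjusted p 0.0233, edgeR adjusted p 0.901). Sp5, a target and repressor of Wnt output, had 5 counts in CH+LIF LP and 2 in LIF LP, and Lef1 had 3 and 0 counts. Of the genes that were not tested, Rnf43, Lgr5, Wnt8a and Apcdd1 also had 0 counts in all 6 libraries. For scale, the 2i+LIF HP libraries held 48.8 to 73.6 CPM of Axin2 and 135.2 to 493.9 CPM of Sp5. The libraries of both labels were thus near 0 in Sp5 and Lef1. At these levels a 2-fold difference between LIF LP and CH+LIF LP was not excluded for most of the list. The 95% interval lay inside 2-fold for 1 of the 10 genes with counts, against 19.4% of all genes.

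Of the Wnt pathway components all 19 were tested and 0 were called by edgeR (0 at an unadjusted p under 0.05 also), with a median log2 fold change of 0.18. Ctnnb1, the gene of beta-catenin, had 619.6, 470.9 and 433.6 CPM in CH+LIF LP and 464.3, 492.0 and 504.5 CPM in LIF LP. Gsk3b, the kinase that CHIR99021 inhibits, had 147.8, 138.6 and 120.0 CPM against 189.5, 148.7 and 113.5 CPM. Tcf7l1, the repressor in naive cells, had 249.0, 114.4 and 182.3 CPM against 103.5, 82.3 and 127.0 CPM, and Tcf7l2 had 42.6, 32.1 and 27.3 CPM against 75.5, 53.1 and 46.2 CPM without overlap (log2 fold change 0.77, unadjusted p 0.0693).

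ERK targets were present in both groups, whose labels name no MEK inhibitor. None of 13 tested genes was called and none had an unadjusted p under 0.05; the median log2 fold change was -0.17. Dusp6, an ERK phosphatase, had 33.4, 41.8 and 38.7 CPM in CH+LIF LP and 20.4, 15.3 and 47.1 CPM in LIF LP. Egr1, an immediate early transcription factor, had 52.3, 16.3 and 12.9 CPM against 57.8, 21.2 and 34.1 CPM. Fos had 8.72, 6.05 and 6.08 CPM against 18.7, 12 and 15.4 CPM, the groups not overlapping (log2 fold change 1.13, unadjusted p 0.0865).

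The LIF pathway, whose ligand is in both labels, gave no call among 13 tested genes (median log2 fold change -0.05). Socs3, the feedback inhibitor, had 78, 53.9 and 39.5 CPM in CH+LIF LP and 57.3, 34.5 and 65.4 CPM in LIF LP. Klf4 had 184.1, 323.8 and 308.3 CPM against 541.4, 576.3 and 292.9 CPM (log2 fold change 0.79, unadjusted p 0.0426, edgeR adjusted p 1). Lifr, the LIF receptor, had 51.4, 73.8 and 50.9 CPM against 94.2, 96.3 and 97.2 CPM without overlap (log2 fold change 0.71, unadjusted p 0.166).

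Nearly all genes of the pluripotency lists had counts in both groups; Dppa3, a naive gene also known as Stella, had 2 counts in CH+LIF LP and 0 in LIF LP. Of 18 naive and 9 core genes, all tested, none was called, with medians of 0.05 and 0.16; the 95% interval lay inside 4-fold for 17 and 9 of them and inside 2-fold for 6 and 3. Zfp42, the locus of the reporter, had 57.7, 89 and 102.5 CPM in CH+LIF LP and 109.6, 91.6 and 116.4 CPM in LIF LP. Nanog had 228.7, 157.4 and 146.6 CPM against 249.5, 141.4 and 206.3 CPM, and Esrrb, a direct target of Tcf7l1 repression, had 127.4, 165.8 and 176.9 CPM against 155.9, 159.3 and 166.9 CPM. Pou5f1, which encodes Oct4, had 29.1, 30.3 and 50.1 CPM against 35.3, 88.3 and 50 CPM. Tdh, the threonine dehydrogenase of mouse embryonic stem cells, had 411.8, 343.2 and 447.3 CPM against 175.7, 177.3 and 220.3 CPM without overlap and did not pass (log2 fold change -1.07, SE 0.45, unadjusted p 0.0244, edgeR adjusted p 0.911).

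Markers of other lineages were then counted. Of 12 mesendoderm genes 2 were tested, T without a count in the 6 libraries and Eomes with a log2 fold change of 0.42, and the summed level of the list was 3.32 to 14.3 CPM over the 6 libraries. Formative and primed epiblast genes gave no call in 7 tested, and Dnmt3b, a de novo DNA methyltransferase, had 121.1, 59.9 and 79.7 CPM in CH+LIF LP against 37.5, 46.5 and 52.9 CPM in LIF LP without overlap (log2 fold change -0.93, unadjusted p 0.0204, edgeR adjusted p 0.875). Primitive endoderm markers (3 of 11 tested), trophectoderm markers (6 of 9, Cdx2 without a count) and fibroblast markers (2 of 8) gave no call. The summed level of the endoderm list was 428.8 to 825.0 CPM in CH+LIF LP and 537.8 to 615.1 CPM in LIF LP, most of it from Sparc, a secreted matrix glycoprotein gene. Sparc had 414.7, 803.8 and 606.7 CPM against 506.7, 496.0 and 576.7 CPM. Lamb1, a laminin chain, had 6.78, 10.9 and 7.59 CPM against 8.26, 19.9 and 23.1 CPM. Trophectoderm markers summed to 35.9 to 94.9 CPM, most of it from Tfap2c, and fibroblast markers to 6.08 to 36.9 CPM. The transcription factor and receptor genes Sox17, Gata6 and Pdgfra of endoderm had at most 2.20 CPM, Elf5 and Hand1 of trophoblast 0 counts, and Col1a2, Dcn and Postn of fibroblasts at most 0.481 CPM. Col4a1, a basement membrane collagen of the endoderm list, had 4.84, 4.24 and 1.52 CPM against 15.4, 14.6 and 12 CPM (log2 fold change 1.93, unadjusted p 0.0308, edgeR adjusted p 0.955). Sox7 of the same list went the other way, with 8 counts in CH+LIF LP and 1 in LIF LP (ratio 7.95, 95% interval of counting error 1.07 to 353). Its members Dab2 and Gata6 had 2 and 0 counts in CH+LIF LP and 9 and 4 in LIF LP. The 6 matched markers of 2-cell-like cells were not tested; their summed level was 0 to 0.605 CPM in CH+LIF LP and 1.99 to 4.41 CPM in LIF LP. In bulk RNA, fewer cells of a type and less RNA per cell cannot be told apart.

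Among the remaining lists, Nodal and BMP signalling (10 tested), imprinted genes (13), DNA methylation (11) and glycogen metabolism (7), whose synthase is a substrate of GSK3, had 0 calls by edgeR and medians of 0.20, 0.06, 0.07 and 0.22. In the same order, 1, 1, 3 and 0 of their genes had an unadjusted p under 0.05, against 4.71% of all tested genes. The 3 of DNA methylation were Uhrf2 and Zfp57, higher in LIF LP, and Dnmt3b, described above, which was lower. Uhrf2, a reader of modified cytosine, had 6.3, 12.1 and 3.8 CPM in CH+LIF LP and 19.3, 28.5 and 22.6 CPM in LIF LP (log2 fold change 1.64, SE 0.45, unadjusted p 0.00124, edgeR adjusted p 0.388). Zfp57, which keeps methylation at imprinted loci, had 38.8, 25.4 and 27.3 CPM against 87.6, 75.7 and 49.5 CPM (log2 fold change 1.21, unadjusted p 0.013, edgeR adjusted p 0.812). The imprinted gene Plagl1 had 5.33, 6.05 and 10.6 CPM against 2.2, 2.66 and 1.92 CPM (log2 fold change -1.66, unadjusted p 0.0288). The groups did not overlap in Uhrf2, Zfp57 or Plagl1. Over these 4 lists, in the order given, 1, 1, 3 and 1 genes were higher and 2, 2, 1 and 0 lower without overlap. Of all tested genes 7.16% were higher and 7.07% lower without overlap.

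**Figure D5:**
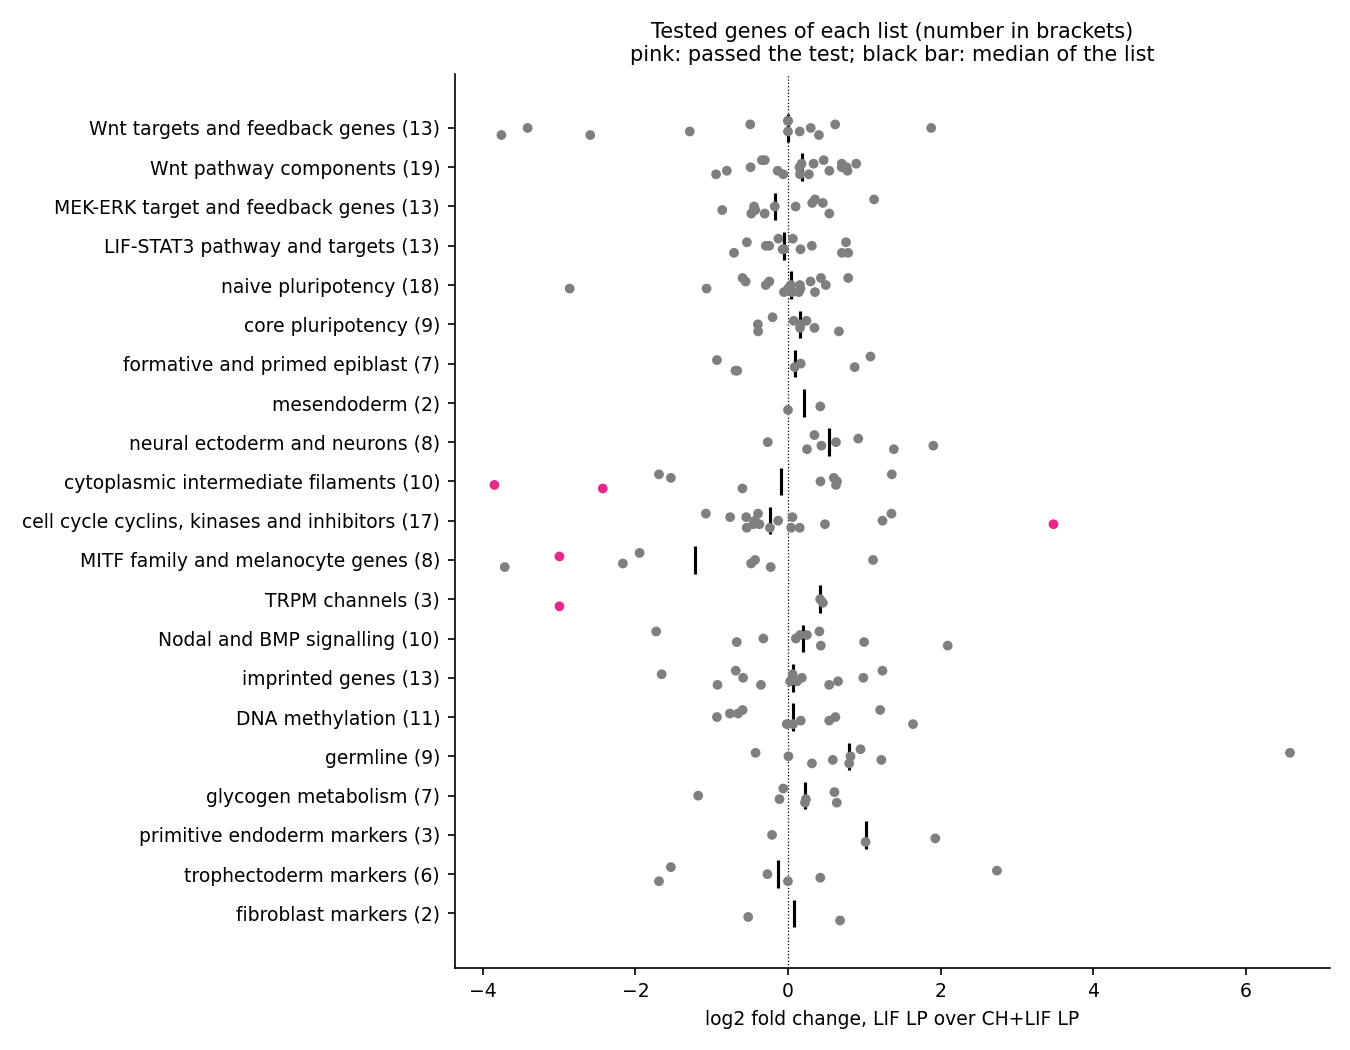
Log2 fold change of LIF LP over CH+LIF LP (horizontal axis) for the tested genes of 21 lists (vertical axis, number tested in brackets); each point is a gene, pink where it passed the test, and the black bar is the median of the list. Calls occur in the intermediate filament, cell cycle, melanocyte and TRPM lists only, Trpm1 being in both of the last. The lists were chosen with earlier results of these data known, so nothing is read from where the calls occur. The germline point at 6.58 is Sycp2 and the melanocyte point at -3.71 is Slc24a5, fitted against groups with 0 counts.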

How the data were processed

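mRNA was sequenced in 21 libraries of E14Tg2a cells; per sample, 125 ng of column-purified total RNA was sent to a sequencing service, per the labels' protocols. The authors deposited whole-number read counts per Ensembl gene ID, not normalized. The submitters' processing notes name bcl2fastq, STAR 2.6.0a, HTSeq and mm10; the annotation, strand setting and filters are not given in the sources used here. The 5 closing entries of each table stayed out (12.2 to 24.6% of a library's entries lay outside genes and 23.1 to 26.4% were not unique in the 6 libraries). Symbols and positions came from GENCODE M21 (31011 of 31053 IDs matched; 11038 overlap another listed gene), promoters from RefSeq.

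All 21 libraries entered 1 edgeR 4.0.16 quasi-likelihood fit in R 4.3.3 with a coefficient per group, the filterByExpr filter and TMM scaling (14 residual degrees of freedom), with two-sided tests and Benjamini-Hochberg adjustment per contrast. CPM divide counts by TMM-scaled library sizes. Standard errors are the log2 fold change divided by the root of F. Lower bounds and ratios for genes with 0 to 3 counts in a group used pooled counts. Genes named are those that passed, the 12 higher and 12 lower genes next in p (mean of at least 5 CPM in a group, no overlap), genes of 22 lists, and neighbours of genes that passed. The members and lists were chosen with earlier results of these data known. Alternatives were DESeq2 1.42.0, its size factors, no filter, thinned counts, the compared groups alone, a replicate block, the 2 libraries standing apart left out, mitochondrial genes and Gm42418 removed, limma-voom (limma 3.58.1) with quality weights, and each library left out; the block in the compared libraries alone was chosen after seeing the data. The fit was tested on simulated counts. Values of 3 genes, 1 of them among the 24, are not reported here.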

Additional observations from a re-analysis of the deposited data

Results flagged for a closer look

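For 15 of 210 named genes the difference between LIF and CH+LIF differed between LP and HP, as tested by the interaction (the log2 fold change at HP minus that at LP). Over all tested genes 0.423% passed. The genes that passed at LP or came next in p were selected on the LP difference, which is part of this value. For them it is a description, and the 15 cannot be read against the 0.423%. Ccnd2 had an interaction of -6.24 (SE 0.98, edgeR adjusted p 0.00337), Trpm1 of 3.87 (SE 0.64, edgeR adjusted p 0.00601) and 1700097N02Rik of 2.43 (SE 0.55, edgeR adjusted p 0.0459). Of the genes next in p, Ramp3 had -4.65 (SE 0.98, edgeR adjusted p 0.0356) and Mt1 3.22 (SE 0.73, edgeR adjusted p 0.0459). For Gm31659 it was 4.37 (SE 0.91, edgeR adjusted p 0.0322) and for Il34 3.48 (SE 0.69, edgeR adjusted p 0.023).

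The other 8 were among 181 list genes that neither passed at LP nor came next in p; the lists were chosen with earlier results known. For the ERK targets Dusp6, Etv4 and Egr1 the LP log2 fold changes were -0.45, -0.43 and 0.46 and the HP values -6.20, -3.15 and -5.65. Their interactions were -5.75 (SE 1.18, edgeR adjusted p 0.0301), -2.72 (SE 0.52, edgeR adjusted p 0.0188) and -6.11 (SE 1.39, edgeR adjusted p 0.0459). Utf1, a core pluripotency gene, had -4.10 (SE 0.93, edgeR adjusted p 0.0459), and Dnmt3l, a cofactor of DNA methylation, -5.40 (SE 0.97, edgeR adjusted p 0.0103). Both had the large value at HP, -4.49 and -6.05, where Dusp6 had 0, 1.23 and 0 CPM in LIF HP. Cdkn1a, an inhibitor of cyclin-dependent kinases, had 2.61 (SE 0.51, edgeR adjusted p 0.021), and Tfap2c, a factor of trophectoderm and germ cells, 2.38 (SE 0.55, edgeR adjusted p 0.0477). For Gpnmb, of the melanocyte list, it was 3.87 (SE 0.85, edgeR adjusted p 0.0425), with -2.17 at LP and 1.70 at HP. Groups of 3 libraries were not tested for single outlying values of a gene.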

How the results depend on the processing

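The 5 genes that passed became 23 with DESeq2, 32 with no filter on low counts, 21 in a fit of the 6 libraries alone, 23 without the 2 libraries that stood apart and 42 with limma-voom. DESeq2 size factors and the removal of mitochondrial genes and Gm42418 left 5, and thinned counts 6 (4 of the 5 among them). Leaving out 1 library at a time gave 1 to 16 genes, the highest when 2i+LIF LP replicate 1, which is in neither group, was dropped, then 10 on dropping 2i+LIF PO replicate 1 and 8 on dropping 2i+LIF HP replicate 1; where an arm was left with fewer libraries, its spread was taken from all groups. The interaction, 45 genes, became 134 with DESeq2, 171 with no filter, 592 in a fit of its own 12 libraries, 349 without the 2 libraries and 914 with limma-voom, 16 with thinned counts, and 5 (without CH+LIF LP replicate 3) to 105 (without 2i+LIF PO replicate 1) with 1 library left out. The cause of these shifts was not tested.

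Nefm passed under all 31 alternatives (edgeR adjusted p at most 0.0288 with a library of its own groups left out), Nefl under 26, 1700097N02Rik under 27, and Ccnd2 and Trpm1 under 25; none of the 5 changed direction. With 1 of the 6 libraries left out, Nefl passed in 1 fit of 6, Trpm1 and 1700097N02Rik in 2 and Ccnd2 in 0.

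Replicate numbers recur between the groups. How libraries deviated from their group mean correlated, for equal numbers, at 0.170, -0.010 and 0.168. For unequal numbers the values were -0.189 to 0.038, so those of replicates 1 and 3 with themselves were the highest. Whether the numbers pair the libraries was not tested, and the main fit did not pair them. A replicate block gave 7 genes, the 5 among them, and 39 for the interaction. In the 6 libraries alone the block gave 99, against 21 without it.

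At 1298051 to 1916962 counts per library, the 95% interval lay inside 4-fold for 2 of the 10 tested Wnt targets with counts, against 78.1% of all genes.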
